A study of Mus musculus with 4 samples.

Results

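The proteasome subunit genes were described in whole hearts of mice with and without the mineralocorticoid receptor in cardiomyocytes. They were taken as every gene whose symbol in the platform annotation begins with Psma, Psmb, Psmc, Psmd or Psme, apart from the immunoproteasome genes Psmb8 and Psmb9. This gave 40 genes with 61 probes, of 16593 named genes with 23978 named probes on the array. By particle, 15 genes encode the 20S core, 16 encode the 19S regulatory particle, 3 encode assembly chaperones that carry Psmd symbols and 4 encode activators. The symbol rule also took in Psmc3ip, a cofactor of meiotic recombination, and Psme3ip1, a partner protein of the Psme3 activator, neither of which is a subunit. Psmd3, Psma8, Psmb11 and Psme2b had no named probe and were not analysed here.

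All 4 groups were C57Bl6 mice homozygous for floxed alleles of the mineralocorticoid receptor (MR flox/flox), aged 8 to 9 weeks, with 1 kidney removed. The wild-type (WT) groups had the floxed alleles alone, and the CM-MRKO groups also carried MLC2v Cre, which is driven from the ventricular myosin light chain gene and so acts in ventricular cardiomyocytes. Each genotype was treated for 8 days with vehicle or with deoxycorticosterone and salt (DOC/salt). Heart RNA of 8 animals was combined into 1 pool per group and read on 1 Illumina bead array. The 4 arrays therefore have no replicates, no pairwise difference has a test, and the spread between animals is unknown.

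The proteasome is the protease that degrades most ubiquitin-tagged proteins. Its 20S core is a barrel of alpha rings, which form the gate, around beta rings, of which Psmb5, Psmb6 and Psmb7 carry the active sites. The 19S particle caps the barrel, binds ubiquitin chains, removes them and unfolds the substrate with a ring of ATPases. Cells raise most subunit genes together when proteasome activity falls short, through the transcription factor Nfe2l1, while interferon gamma swaps Psmb8, Psmb9 and Psmb10 into the core and raises the activator genes Psme1 and Psme2. In heart the system turns over sarcomere and mitochondrial proteins.

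Values are deposited bead intensities, or log2 differences after background correction and quantile normalization. A probe was counted as detected where under 0.01 of the probes for chemosensory receptor genes (olfactory, taste, vomeronasal), used as a stand-in for background, were at least as bright. That limit lay between 108.6 and 121.6. Intensities run in 1 order: WT under vehicle, WT under DOC/salt, CM-MRKO under vehicle, CM-MRKO under DOC/salt. Of the 40 genes, 30 were detected on all 4 arrays, 4 on some and 6 on none, and each gene is given by its brightest probe unless a second probe is named. The WT vehicle array stood apart over the whole genome: its Pearson correlation with each other array was 0.975 to 0.978 over 5467 genes, against 0.993 to 0.995 among the other 3. Over the 30 proteasome genes detected throughout, the same correlations were 0.962 to 0.972 and 0.995 to 0.997. On that array 311 genes, 4.55% of 6836, were at least 1.5-fold lower than on any other. The other 3 arrays had 8, 1 and 2 such genes. The array has no named probe for the targeted gene Nr3c2, so the data hold no check of the genotypes. The cardiomyocyte marker Myl2 read 15900.9 to 21082.8 and Myh6 read 10950.1 to 16809.2, both detected on all 4 arrays. The cardiomyocyte marker Pln was undetected on WT vehicle, at 94.6, and read 234.9 to 258.4 on the others, and a dimmer second Myh6 probe was likewise undetected there, at 108.6 against 277.1 to 316.6.

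In the alpha ring, 5 of 7 genes were detected. Psma2 read 3156, 6350.9, 5514.4 and 6443.5. Psma3 read 467.7, 1259.8, 1276.8 and 1302.5, and Psma4 read 815, 2082.3, 2353.4 and 2086.3. After normalization WT vehicle minus the mean of the other 3 arrays was -0.38, -0.82 and -0.80 (log2) for these 3 genes. Over those other arrays they spanned 0.29, 0.07 and 0.24, and the Psma2 span was the widest of the core genes. Psma5 read 1726.3, 2630.5, 3130.5 and 3066.2, and Psma7 read 2054.2, 3140.6, 3010 and 3242.9. Both were dimmest on WT vehicle in deposited intensity, as were all 34 detected members and 93.4% of all genes. After normalization Psma7 spanned 0.10 on the log2 scale over the 4 arrays and Psma5 0.24. Psma1 and Psma6, which are obligate parts of the ring, had 1 probe each, at 75.5 to 83.7 and 76.5 to 86.2, under the detection limit on all 4 arrays.

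All 7 constitutive beta ring genes were detected. Of the catalytic subunits, Psmb5, the chymotrypsin-like site, read 305.8, 364, 400.5 and 443.7. Psmb6, the caspase-like site, read 1067.9, 2626.8, 2744.5 and 3088.4. Psmb7, the trypsin-like site, read 1532.2, 2639.9, 2515.5 and 2798.5. All 3 active-site genes were dimmest on WT vehicle in deposited intensity, to different degrees. After quantile normalization Psmb6 was 0.74 (log2) lower on WT vehicle than the mean of the other 3 arrays, Psmb7 0.16 lower and Psmb5 0.29 higher, while the dimmest of the 3 detected Psmb7 probes was 0.55 higher. Psmb10, the interferon-inducible counterpart of Psmb7, read 1447.6, 2143.2, 2330.8 and 2230.1, and its normalized values spanned 0.13.

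Among the structural beta subunits, Psmb1 read 864.5, 894.6, 964.6 and 1069.2, nearly level in deposited intensity. Psmb2 read 4620.1, 5663.2, 6687.7 and 5930.1. Psmb3 read 2792.6, 3604.8, 3663.2 and 4353.2. Psmb1 was the core gene with the highest normalized WT vehicle value against the other arrays, by 0.54. Psmb4 read 6248.9, 8721.2, 9136.9 and 8930.7, and its normalized values spanned 0.12 over the 4 arrays.

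In the 19S particle, 5 of 6 ATPase genes were detected. Psmc1 read 269.1, 554.2, 527.3 and 547.6, and Psmc5 read 371.1, 864.4, 730.1 and 938.3. After normalization both were still lower on WT vehicle than the mean of the other 3 arrays, by 0.45 and 0.58 (log2). Psmc2 read 1386.1, 2410.9, 2582.8 and 2623.6, Psmc3 read 1336.7, 2147.8, 1817.7 and 2337, and Psmc4 read 1097.9, 1757.9, 1807.8 and 1875.3. Psmc4 was among the flattest members, with a normalized span of 0.07. The single Psmc6 probe stayed between 79.5 and 97.4, under the limit.

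Of 10 non-ATPase genes 8 were detected, and 5 of them on all 4 arrays. Psmd4, a ubiquitin receptor, read 3760, 5101, 5946.6 and 5925.1. The lid subunit gene Psmd13 read 2242.2, 2864.7, 3116.3 and 3659.9, and the lid gene Psmd8 read 863.1, 1158.4, 1325.7 and 1222.5. Psmd12, also of the lid, read 803.4, 1167, 1308.5 and 1339.8. Psmd7, the partner of the deubiquitinase Psmd14, read 662.4, 1047.2, 1057.1 and 1112.2, and its normalized values spanned 0.04, the narrowest range of any member detected on all 4 arrays. The scaffold gene Psmd1 read 102.3, 118.5, 145.3 and 148.2, and Psmd11 read 98.7, 126.4, 120.9 and 141.9, both undetected in WT vehicle alone. Psmd14 read 99.1, 112.9, 120.9 and 112.1 and passed the limit in CM-MRKO vehicle alone. No probe of Psmd2, a scaffold of the base, or of Psmd6 was detected. Values this close to the limit give no order between arrays.

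Of the assembly chaperones, Psmd10 (gankyrin) read 331.3, 439.6, 488.5 and 506. Psmd5 stayed between 98.1 and 132.6, near the limit, and Psmd9 was not detected. Among the activators, Psme1, a subunit of the interferon-inducible 11S cap, read 1525.9, 2851.2, 2684.1 and 2939.1. Its partner Psme2 read 585.6, 609.9, 664.8 and 669.4. Both subunits of the 11S cap were dimmest on WT vehicle in deposited intensity. After quantile normalization Psme2 was 0.58 above the mean of the other 3 arrays there and Psme1 0.26 below it. Psme3, the nuclear activator, read 223.2, 328.3, 288.2 and 372.9. Psme4, which encodes the single-chain activator of the core that acts in nuclei and during spermatogenesis, read 819, 2665.9, 2455.7 and 2255.8, and was the member with the lowest WT vehicle value relative to the other arrays. Psmc3ip read 126.6, 170.5, 164.4 and 189.2, and Psme3ip1 read 215.2, 310.2, 299.5 and 323.4.

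**Figure D1:**
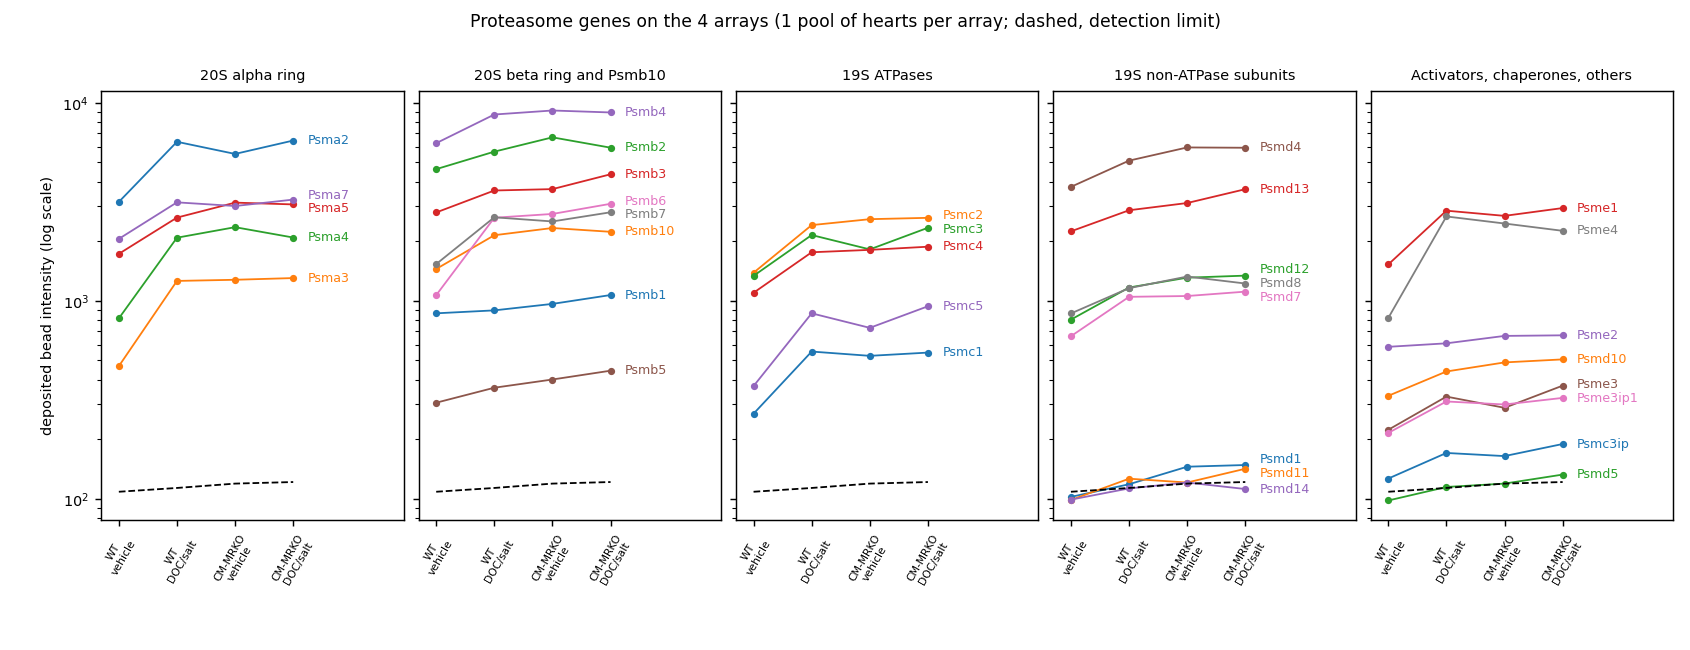
Deposited bead intensity (vertical, log scale) of the 34 genes detected on at least 1 array, by particle, with 1 point per array and the detection limit dashed. All 34 were dimmest on the WT vehicle array before normalization, and Psma3, Psma4, Psmb6 and Psme4 step up most steeply from it to the other 3 arrays.

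The promoters of Psma3, Psma4, Psmb6 and Psme4 are shown because these 4 genes were low together on WT vehicle. Each line gives the 250 bases before the annotated RNA start on the gene's own strand, from RefSeq on GRCm38.p6, all on the plus strand. The intervals are chr12:70974373-70974622 for Psma3, chr9:54950609-54950858 for Psma4, chr11:70525107-70525356 for Psmb6 and chr11:30771525-30771774 for Psme4. Capitals mark matches on either strand to TGACNNNGC, the core of the antioxidant response element that Nfe2l1 and Nfe2l2 bind, or to CCAAT, the box bound by the factor NF-Y.
Psma3: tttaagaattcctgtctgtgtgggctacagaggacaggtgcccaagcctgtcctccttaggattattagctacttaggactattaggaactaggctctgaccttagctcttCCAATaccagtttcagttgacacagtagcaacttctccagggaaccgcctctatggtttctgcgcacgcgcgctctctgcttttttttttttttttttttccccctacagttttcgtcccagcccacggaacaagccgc
Psma4: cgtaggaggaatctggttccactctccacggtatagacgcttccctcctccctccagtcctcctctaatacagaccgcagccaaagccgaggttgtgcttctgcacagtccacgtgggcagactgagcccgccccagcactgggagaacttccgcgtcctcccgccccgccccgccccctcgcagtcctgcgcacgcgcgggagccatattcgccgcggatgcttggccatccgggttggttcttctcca
Psmb6: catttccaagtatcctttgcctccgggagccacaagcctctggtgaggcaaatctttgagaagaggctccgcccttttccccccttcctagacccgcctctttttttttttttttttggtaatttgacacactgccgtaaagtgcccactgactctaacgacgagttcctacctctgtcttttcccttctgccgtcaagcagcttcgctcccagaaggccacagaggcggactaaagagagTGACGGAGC
Psme4: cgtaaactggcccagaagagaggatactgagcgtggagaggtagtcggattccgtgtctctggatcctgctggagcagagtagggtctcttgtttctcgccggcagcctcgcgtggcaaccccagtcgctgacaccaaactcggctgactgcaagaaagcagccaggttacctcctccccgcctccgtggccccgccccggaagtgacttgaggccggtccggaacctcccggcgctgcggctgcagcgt
The Psmb6 window held TGACNNNGC once, at its last 9 bases, and the Psma3 window held CCAAT once, 139 bases before the start. The other windows held neither, so the 4 genes shared no match. The table had 39 such windows for 35 of the 40 genes. TGACNNNGC was in 5 of them, those of Psmb5, Psmb6, Psmc6, Psmd9 and Psmd12, or 12.8%, against 10.2% of 32851 windows of all genes. CCAAT was in 14 (35.9%, against 33.9%), and TTCNNNGAA, the core of the interferon gamma-activated site, was in 0 (against 7.02%).

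The comparison of DOC/salt with vehicle in CM-MRKO hearts sets 1 pool against 1 pool, both labelled as lacking the cardiomyocyte receptor. Treatment, pool and array cannot be told apart in it. The 34 detected proteasome genes lay close to 0: their median log2 difference was -0.02, and none was as much as 1.5-fold apart in either direction. Over the 6673 genes detected in this pair, 0.629% were at least 1.5-fold higher and 0.435% at least 1.5-fold lower, so a count of 0 among 34 members is near the background. The highest members were Psme3 at 0.36, Psmc5 at 0.30 and Psmc3 at 0.30. The lowest detected on both arrays were Psma4 at -0.24, Psmd8 at -0.22 and Psmb2 at -0.22. Psmd14, barely over the limit under vehicle and undetected after DOC/salt, is given no rank. The spread between probes of one gene, taken over 1254 genes with 2 detected probes, was 0.17 (SD, log2), and 23 of 34 members lay within it, against 63.8% of all genes. This spread is technical and holds no difference between animals.

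The genotype pair under DOC/salt also sets 1 pool against 1 pool, and CM-MRKO alone carries MLC2v Cre. Receptor loss, Cre, pool and array cannot be told apart in it. The proteasome genes were again near level between the genotypes. Their median difference, CM-MRKO minus WT, was 0.01 over 33 genes, and none was 1.5-fold higher or lower. Of 6693 genes in all, 0.896% were higher and 0.956% lower. Psmd13, at 0.27, Psmb5, at 0.22, and Psmb1, at 0.17, were the highest members clear of the detection limit. Psmd1 stood at 0.32 from values near the limit, 118.5 and 148.2, and is not ranked. Psme4, at -0.35, Psmc1, at -0.13, and Psma2, at -0.12, were the lowest, and Psmd14 was detected on neither array. The spread between probes was 0.18 here, and 29 of 33 members lay within it, against 63.3% of all genes, a difference in share that was not tested. Many members are bright genes, and the genes they are set against were not matched for brightness.

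The same pair of arrays was read for the proteasome genes that interferon can raise, beside other interferon-responsive genes. The list of those genes was chosen with earlier results of these data known, so it is not independent of them. Of 11 detected genes of an interferon list, which includes Psmb8 and Psmb9, 7 were at least 1.5-fold lower in CM-MRKO than in WT, against 0.956% of all genes. Their list had a median of -0.72, with Igtp at -1.24 and Irgm2 at -1.30. Second probes differed: Irgm1 stood at -0.14 beside -0.72 for its brightest, and B2m at 0.03 beside -0.29. Those of Gbp3 and Ifit3 were at -0.59 and -0.48, the Ifit3 probe undetected in CM-MRKO. Psmb10 differed by -0.05, Psme1 by -0.08 and Psme2 by 0.05. The immunoproteasome genes left out of the rule were also short of 1.5-fold. Psmb8 read 146.4 in WT DOC/salt and 155 in CM-MRKO DOC/salt, a difference of -0.08 after normalization. Psmb9 read 272.9 and 258.4, a difference of -0.24.

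The DOC/salt response of WT hearts rests on the WT vehicle array that stood apart. Of 33 members, 5 were at least 1.5-fold higher after DOC/salt and 2 at least 1.5-fold lower, where 8.98% of 6391 genes were higher and 4.08% lower. Psme4 was 2.20-fold higher, Psma3 1.80-fold, Psma4 1.72-fold, Psmb6 1.61-fold and Psmc5 1.60-fold. Psme2 and Psmb1 stood at -0.64 each on the log2 scale, and Psmb5 came next at -0.41. The direction of all 3 depends on the normalization: in deposited intensity Psme2 and Psmb1 were slightly brighter after DOC/salt, by 0.059 and 0.049 (log2), and Psmb5 was 1.19-fold brighter. On deposited values 15 members were higher and 0 lower, and with each array scaled to its median 12 and 0, while the counts over all genes were 1731 and 2, and 1961 and 10. The median of all genes moved to 0.39 under both of these settings, with medians of the members at 0.56 and 0.52. The median of the members after quantile normalization was 0.04, and that of all genes -0.05.

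By particle, the 5 alpha ring genes had a median of 0.52 in the WT response. All lay above 0, against 44.1% of all genes, but Psma5 at 0.002 and Psma7 at 0.03 were within the spread between probes, 0.34. The 7 constitutive beta ring genes had a median of -0.18, from -0.64 for Psmb1 to 0.69 for Psmb6, on both sides of 0 after quantile normalization. In deposited intensity all 7 were brighter after DOC/salt, from 1.035-fold for Psmb1 to 2.46-fold for Psmb6, as was every other detected member. The 5 ATPase genes had a median of 0.22, with all of them above 0, but Psmc2 at 0.22, Psmc3 at 0.10 and Psmc4 at 0.05 were within that spread. The 7 non-ATPase genes counted in this pair had a median of -0.07. Differences between the particles were not tested.

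The vehicle pools of both genotypes share the WT vehicle array with the WT response, so the same genes recur by construction. In CM-MRKO vehicle 4 of 33 members were at least 1.5-fold higher than in WT vehicle and 0 lower, where 7.59% of 6366 genes were higher and 2.56% lower. Psme4 was 1.96-fold higher, Psma4 1.90-fold, Psma3 1.79-fold and Psmb6 1.66-fold. Psmd1 differed by 0.57 but was undetected in WT. Psme2, Psmb1 and Psmb5 were again lowest, at -0.52, -0.51 and -0.27, short of 1.5-fold. In deposited intensity these 3 were brighter in CM-MRKO vehicle, by 1.135-, 1.116- and 1.31-fold. The median of the members was 0.07, and on deposited values it was 0.62, with all genes at 0.44. The counts of higher members were 17 on deposited values and 10 with median scaling, beside 1898 and 1747 of all genes against 483 after quantile normalization.

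**Figure D2:**
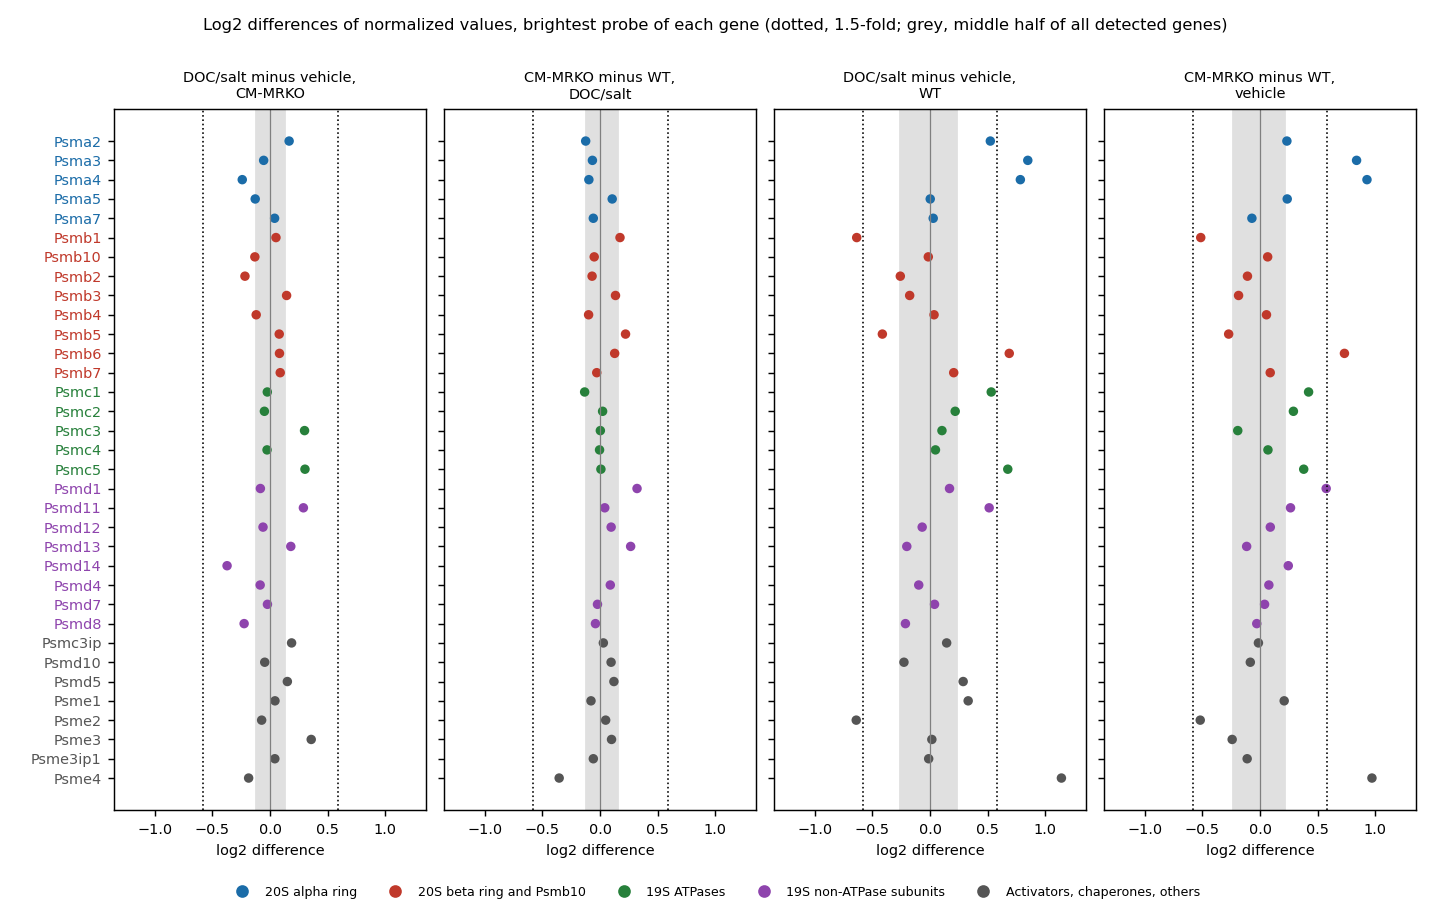
Log2 difference of normalized values (horizontal) for each proteasome gene (vertical, coloured by particle) in the 4 pairwise comparisons, shown where the gene was detected in the pair, with dotted lines at 1.5-fold and in grey the interquartile range of all genes. All points lie inside 1.5-fold in the 2 comparisons without the WT vehicle array, and Psme4, Psma3, Psma4 and Psmb6 lie beyond it in both comparisons with that array.

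The difference between the genotypes in the response to DOC/salt was read by subtracting the WT response from that of CM-MRKO, which uses all 4 arrays. Receptor loss, Cre, pool and array cannot be told apart in it either. Of 34 members 1 was at least 1.5-fold higher, Psmb1 at 0.69, and 4 were lower, namely Psme4 at -1.33, Psma4 at -1.02, Psma3 at -0.90 and Psmb6 at -0.61. Over 6836 genes 6.77% were higher and 10.3% lower. Psme2, at 0.57, and Psmb5, at 0.49, came after Psmb1. The 4 lower members are those that were dim on WT vehicle, and in CM-MRKO hearts alone they differed by -0.19, -0.24, -0.06 and 0.08 between the treatments. On deposited values 0 members were higher and 14 lower, and with median scaling 0 and 10, while all genes stood at 2 and 1385, and 70 and 1999, against 463 and 704 after quantile normalization.

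Array by array, 4 members were lower on WT vehicle than on each other array by at least 1.5-fold, namely Psma3, Psma4, Psmb6 and Psme4, whose promoters are printed above, and the share over all genes was 4.55%. The count was 13 on deposited values and 8 with median scaling. Both settings lowered WT vehicle over all genes: the all-gene median of the WT response was 0.39 under each, against -0.05. The share over all genes under them is not given here, so these counts are not read as a result about the members. None lay at least 1.5-fold above the others on it, against 0.439% of all genes. No member lay that far below or above the rest on any of the other 3 arrays. Over those 3 arrays the 30 members detected throughout had a median normalized range of 0.15, from 0.02 for Psmd7 to 0.36 for Psme3. All 5467 genes detected throughout had a median range of 0.20, and 2.03% of them spanned 1.5-fold or more, against 0 of 30 members. These genes were not matched to the members for brightness. After normalization 16 of 34 members, 47.1%, had their lowest value on WT vehicle, against 32.5% of all genes. Among the 16 are Psmd1, Psmd5 and Psmd11, which were undetected on WT vehicle and near the limit elsewhere, so their order is not reliable. The all-gene share also counts genes detected on at least 1 array, and the difference in share was not tested.

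**Figure D3:**
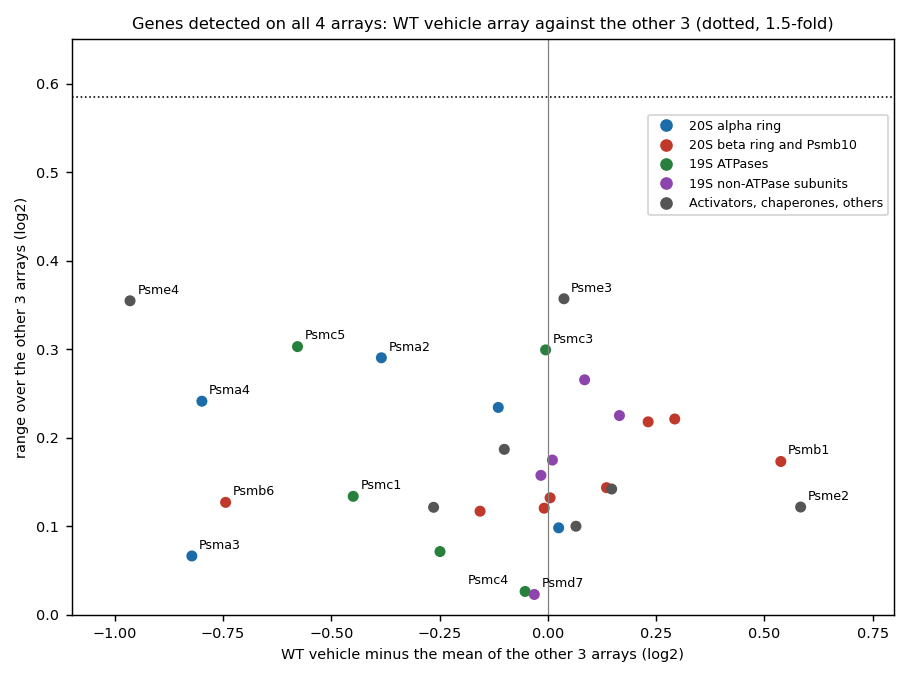
For the 30 proteasome genes detected on all 4 arrays, the normalized WT vehicle value minus the mean of the other 3 arrays (horizontal, log2) against the range over those 3 arrays (vertical, log2). Horizontal positions run from -0.96 for Psme4 to 0.58 for Psme2, which was dimmest on WT vehicle before normalization, while no gene reaches 1.5-fold on the vertical axis.

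Each of the 4 members low on WT vehicle rests on a single detected probe. Psma4 and Psmb6 had 1 probe each. A further Psma3 probe read 83.2 to 88 and a further Psme4 probe read 84.9 to 92.7, both under the limit on all 4 arrays. For Psmc5 the second detected probe read 320.4, 573.1, 599.6 and 666.3, and its WT response of 0.25 was smaller than the 0.67 of the brighter probe.

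In all, 9 members had 2 or more detected probes. Over the 2 brightest of each, the spread between probes was 0.16 in the WT response and 0.09 in the vehicle pair, where all genes had 0.34 in both. The member values rest on 9 pairs of probes, and the genes were not matched for brightness. The dimmest of 3 Psmb7 probes lay apart from the brighter ones, which read 1532.2, 2639.9, 2515.5 and 2798.5, and 1176.3, 1815.1, 1978.7 and 2105.1. It read 454.6, 468.1, 529.1 and 542.9, a WT response of -0.65 against 0.21 and 0.02. The second Psmd7 probe read 300.9, 424.3, 391.5 and 324.7, and differed by -0.59 between the genotypes under DOC/salt, where the brighter probe was at -0.02. The second Psmb10 probe read 942.5, 1522.9, 1655.6 and 1786.2, a WT response of 0.09 beside -0.02, and the second Psma7 probe 1505.3, 2268.8, 2193.6 and 2542.6, a response of 0.01 beside 0.03. The probes of these 2 genes thus lay close together. Further probes read 2863.6, 4127.9, 4163 and 4377.7 for Psmb2 and 1175.2, 1964.4, 1989 and 2035.5 for Psme1. The dimmer Psmd10 probes ran from 110.5 to 231 and the second Psme3ip1 probe from 181.4 to 265.6.

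**Figure D4:**
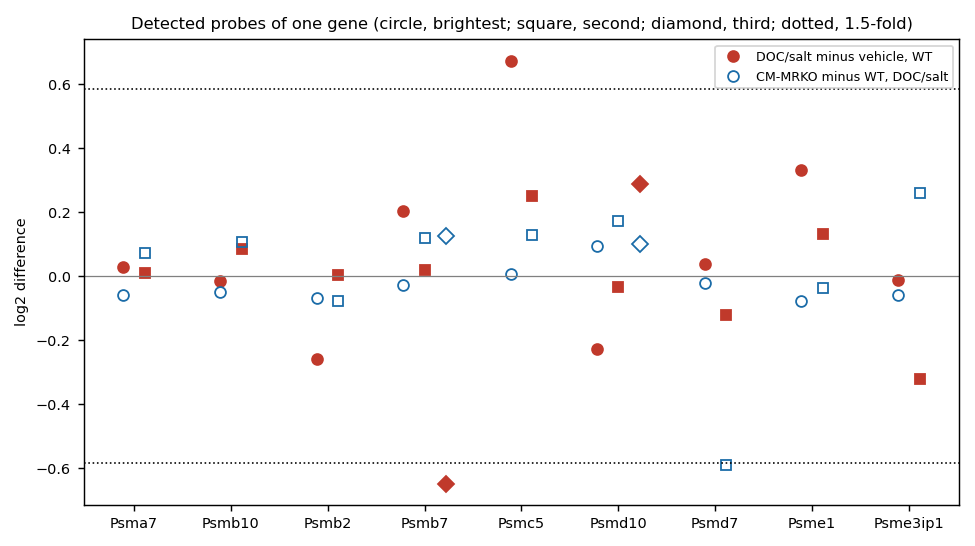
Log2 difference (vertical) of each detected probe of the 9 genes with 2 or more, for DOC/salt minus vehicle in WT (filled) and CM-MRKO minus WT under DOC/salt (open). The dimmest Psmb7 probe at -0.65 and the second Psmd7 probe at -0.59 lie apart from the other probes of their genes.

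Other genes of the pathway were read from lists that carry no Psma to Psme symbol. Of the assembly and associated factors, 13 had a named probe and 10 were detected. None was 1.5-fold apart in CM-MRKO hearts after DOC/salt or between genotypes under DOC/salt. Sem1, a small 19S subunit, read 458.5, 1371.6, 1434.4 and 1501, a WT response of 1.03, and so joined the genes low on WT vehicle. Pomp, the chaperone that matures the core, read 2426.8, 4824.9, 4863.4 and 5199.9, a WT response of 0.44. Psmg1, a chaperone of the alpha ring, read 400.4, 425.6, 437.1 and 466.2, with a WT response of -0.61 but brighter deposited values.

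Nfe2l1, the activator of subunit genes, read 701.4, 1414.9, 1280.8 and 1497.4. It differed by 0.15 in the CM-MRKO response, -0.02 between genotypes under DOC/salt and 0.41 in the WT response, short of 1.5-fold each time. Nfe2l2 was not detected. Vcp, the unfoldase that hands substrates to the proteasome, read 3872.5, 5193.5, 6150.1 and 5479.8 and differed by -0.26, -0.06 and -0.08 in the same comparisons.

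Of 6 muscle ubiquitin ligase genes detected, 0 were 1.5-fold apart in any of the 4 pairwise comparisons. Trim63 (MuRF1), which tags sarcomere proteins, read 278.3, 514.5, 533.5 and 488.5. Fbxo32 (atrogin) read 278.2, 372.9, 383 and 469.1, a difference of 0.25 between genotypes under DOC/salt. Of the ubiquitin and ubiquitin-activation list only Ube2n was detected, at 187.5 to 278.

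Markers of cell types were read on the same arrays as sums of deposited intensity, which the brightest gene of a list dominates, and as normalized differences. The sum over 5 fibroblast markers was 1660 in WT vehicle and 5662 to 6178 on the other 3 arrays, of which Dcn supplied 395.2 and 3886.7 to 4135.2. In the WT response Dcn stood at 2.87 and Pdgfra at 0.74, but Lum at -0.18, Tcf21 at -0.34 and Col1a1 near 0, so the list had a median of -0.0025 and 2 of 5 were at least 1.5-fold higher. For 5 cardiomyocyte markers the sum was 42160 and 48340 to 57650, with a median WT response of -0.02 and 1 of 5 higher, Pln at 2.04. For 3 red cell markers it was 19670 and 20070 to 23700, nearly all from Hba-a1, while Alas2 read 375.5 in WT vehicle and 792 to 1039.2 on the others. Hbb-bt read 103.5 there, undetected, and 177 to 185.6 on the others, and the red cell list had a median WT response of 0.93 with 2 of 3 higher. The sum over 4 endothelial markers was 1423 and 1899 to 2068, with a median WT response of -0.41, and over 5 macrophage and leukocyte markers 6187 and 8007 to 8179, with a median of -0.12. By brightest probes neither list had a member 1.5-fold apart in that response. A dimmer second probe of Lyz2, of the leukocyte list, was undetected on WT vehicle. It read 91.9, 142.5, 146 and 181.6, a WT response of 1.17, where the brightest Lyz2 probe was at -0.28. The sum over 4 neutrophil markers ran 545.9, 1028, 1360 and 2177, and the 2 counted in the WT response, S100a8 at 0.94 and S100a9 at 1.04, were both 1.5-fold higher. Between genotypes under DOC/salt all 4 were at least 1.5-fold higher in CM-MRKO, with a median of 1.15, though Ltf and Retnlg were undetected in WT DOC/salt. In the CM-MRKO response 2 of 4 were higher, as was the fibroblast marker Col1a1, at 0.69. No other marker was 1.5-fold apart in these pairs by brightest probes. The leukocyte marker Ptprc, the endothelial marker Cd36 and the neutrophil marker Ngp were not detected. In RNA of whole hearts, fewer cells of a type and less RNA per cell cannot be told apart, and the part of these markers in the proteasome values was not tested.

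The one fit that leaves a residual, an additive model of genotype and treatment over all 4 arrays in limma, called no gene. At an adjusted p under 0.05 it called 0 of 34 members and 0 of 6836 genes (0%) for treatment, and likewise 0 (0%) for genotype. At an unadjusted p under 0.05 it held 1 member for treatment, Psmc5 at 0.49 on the log2 scale (limma adjusted p = 0.979), and 1 for genotype, Psmd1 at 0.45 (limma adjusted p = 0.999), which was near or under the detection limit in WT. Over all genes 4.05% and 3.82% passed the unadjusted threshold. The fit has 1 residual degree of freedom, the interaction, and so takes the divergence of the WT vehicle array as error.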

How the data were processed

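Whole-heart RNA (30 mg of tissue extracted per the labels' protocols) of 8 animals per group was pooled and measured on 4 single-colour Illumina bead arrays. The deposited intensities are linear, keep their background and differ in scale between arrays; Partek is named, without version or steps, in the submitters' processing notes. The 4 columns of a further deposited table were left out, since no label ties them to samples. Groups were taken from the sample titles. The treatment protocol text names vehicle for every sample and was not used.

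Intensities were corrected by normexp (maximum likelihood, offset 16), quantile normalized and put on the log2 scale with limma 3.58.1 in R 4.3.3. A probe was detected where under 0.01 of 1341 receptor probes were at least as bright. Each gene is given by its probe with the highest mean, and was counted in a comparison if any array there detected it. The threshold for counts was 1.5-fold. The spread between probes is the SD of the difference between the 2 brightest detected probes of a gene, divided by the square root of 2. The additive fit used lmFit and eBayes with Benjamini-Hochberg adjustment over all genes. All 40 symbols matched the gene table of GRCm38.p6, used for names; probe positions are not printed, as the sources used here name no build for them. The scripts were tested on simulated data.

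The members and lists were chosen with earlier results of these data known. Genes were named by a rule: members 1.5-fold apart, the 3 highest and lowest of each comparison (genes near the detection limit unranked, a choice made after seeing their values), the least variable, the brightest, the catalytic subunits, the activators, genes with 2 or more detected probes, and listed genes 1.5-fold apart or among the brightest. The group for Psme3ip1 was added after its probes were seen. Alternatives changed the correction, scaling, offset, detection limit, detection rule and probe choice.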

Additional observations from a re-analysis of the deposited data

Results flagged for a closer look

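Psma4 and Psme4 were flagged because their differences after DOC/salt had opposite signs in the 2 genotypes and passed the spread between probes. That spread was 0.34 in WT and 0.17 in CM-MRKO, and the CM-MRKO values passed it by little. In the CM-MRKO pair 63.8% of all genes lay within it, so the opposite sign is not read as an opposite response. Psma4 differed by 0.78 in WT and -0.24 in CM-MRKO, a difference of responses of -1.02 on the log2 scale. Psme4 differed by 1.14 in WT and -0.19 in CM-MRKO, a difference of -1.33. With 1 array per group the difference was not tested, and both genes were dimmest on the WT vehicle array.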

How the results depend on the processing

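With 1 array per group no value has a replicate check, and signal over background limits the genes near the detection limit. All medians and counts for the 2 comparisons without the WT vehicle array kept to within the spread between probes and within 1.5 times under each scaling, offset and detection alternative. The exception was the probe used: between genotypes under DOC/salt, counting every detected probe, or the second brightest (chosen after seeing the data), gave 1 lower, the second Psmd7 probe. Deposited values and scaling to the median of all probes moved results that use WT vehicle. In the WT response the median was 0.56 and 0.52 under these settings, with 15 and 12 members higher and 0 and 0 lower. In the vehicle pair the median was 0.62 and 0.43, with 17 and 10 higher. In the difference of responses 14 and 10 were lower and 0 and 0 higher, with a median of -0.50 on deposited values, and 2 were higher with every probe counted. On WT vehicle 13 and 8 members lay below all 3 other arrays. For these counts, and for those by every probe or the second brightest, the share over all genes is not given here. They are not read as a result about the members. Over all genes these settings moved the median of the WT response from -0.05 to 0.39 and 0.39. Psmb1 and Psme2 turned to 0.049 and 0.059 in the WT response on deposited values (Psmb5 turned too), and were at -0.14 and -0.12 with median scaling. With median scaling Psmb1 was at 0.22 in the difference of responses, and at 0.10 on deposited values. Psmb6 was at -0.55 there with scaling to detected probes, and Psmc5 at 0.25 in the WT response with its second probe. Under each scaling and offset Psma3, Psma4 and Psme4 kept their direction and their 1.5-fold. This held in the WT response, the vehicle pair and the difference of responses. The detection and probe alternatives could not change these values, since each gene has 1 detected probe and was detected on all 4 arrays. Every alternative reuses the same WT vehicle array. The additive fit called 0 members under each scaling and offset, though over all genes it called 33 for treatment and 24 for genotype with median scaling, and 29 and 30 with scaling to detected probes.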
